A study of Mus musculus with 9 samples.

Results

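To examine the NK and cytotoxic effector program in the liver after CD40 activation, 10 genes of the 24341 in the deposited table were followed in 9 mice. They were listed by name, and the list was made with earlier results of these data known. Gzma, Gzmb, Prf1, and Nkg7 belong to cytotoxic granules. Ncr1, Klrb1c, Klrk1, and Klrd1 encode receptors of the NK cell surface. Eomes and Il2rb encode a transcription factor and a cytokine receptor chain that NK cells depend on. RNA was extracted from whole liver of wild-type (WT) C57BL/6 mice at 48 hours, or 2 days, after treatment and sequenced from the 3′ end. The anti-CD40 group held 3 mice (numbered 2, 5, and 9) given FGK45, an agonist antibody to CD40, and the control group held 6 mice (numbered 3, 4, 7, 8, 11, and 12) given PBS. By default the mice were matched for sex and were 8 to 12 weeks of age. The study left out some of its anti-CD40 mice because their blood B cells did not fall, and whether this applied to the mice analyzed here is not stated.

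NK cells kill by releasing granules at the contact with a target cell. Perforin opens the target membrane, and granzymes, a family of serine proteases, enter and trigger cell death. Release is governed by the balance between activating receptors, such as NKp46 and NKG2D, and inhibitory receptors, many of which bind MHC class I. IL-2 and IL-15 act through the shared β chain CD122 (Il2rb) and sustain NK cells, and the T-box factors Eomes and T-bet direct their maturation. The liver is rich in NK cells and in related group 1 innate lymphoid cells, which share most of these receptors but largely lack Eomes. CD8+ T cells carry the same granule proteins and some of the same receptors.

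The sequence before the start of each gene was read from RefSeq (GRCm38.p6) as the 250 bases upstream, and 8 of the 10 genes matched an entry. Klrd1 and Il2rb are named only. A core Runx motif, TGTGGT on either strand, was present in 7 of these 8 genes, compared with 14.0% of 32851 such windows over all genes. Here and below, the first count is of genes and the second of single windows. A gene such as Ncr1 can have several windows, and the share by gene was not counted. The 4 windows below are those of the granule genes Gzma, Gzmb, and Nkg7 and of the receptor gene Ncr1, shown because they are the granule genes tested and a receptor gene used below as a reference. Each is printed 5′ to 3′ in the direction of the gene. Capitals mark TGTGGT or its reverse complement ACCACA, and in Nkg7 also the T-box motif GGTGTGA. The Gzma window is chr13:113100982-113101231 on the minus strand, with the first base of the motif 50 bases before the start. The Gzmb window is chr14:56262335-56262584 on the minus strand and holds the motif 93 and 34 bases before the start. The Nkg7 window is chr7:43436888-43437137 on the plus strand, with the Runx motif 83 bases before the start. The Ncr1 window is chr7:4337474-4337723 on the plus strand and holds the motif 185 and 50 bases before the start of this transcript.
Gzma: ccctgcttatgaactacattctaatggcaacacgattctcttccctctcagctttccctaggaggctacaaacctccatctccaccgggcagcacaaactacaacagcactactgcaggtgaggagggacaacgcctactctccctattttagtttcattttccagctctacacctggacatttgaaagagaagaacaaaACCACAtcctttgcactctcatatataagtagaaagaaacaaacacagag
Gzmb: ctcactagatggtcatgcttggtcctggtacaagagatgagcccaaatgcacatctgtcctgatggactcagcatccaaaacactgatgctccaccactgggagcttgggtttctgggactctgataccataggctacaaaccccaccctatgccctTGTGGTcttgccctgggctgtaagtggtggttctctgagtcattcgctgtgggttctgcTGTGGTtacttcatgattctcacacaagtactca
Nkg7: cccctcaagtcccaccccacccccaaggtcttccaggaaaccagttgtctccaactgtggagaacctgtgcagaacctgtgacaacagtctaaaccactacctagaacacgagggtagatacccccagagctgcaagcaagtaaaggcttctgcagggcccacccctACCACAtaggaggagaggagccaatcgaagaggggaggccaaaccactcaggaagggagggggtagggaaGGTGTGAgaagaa
Ncr1: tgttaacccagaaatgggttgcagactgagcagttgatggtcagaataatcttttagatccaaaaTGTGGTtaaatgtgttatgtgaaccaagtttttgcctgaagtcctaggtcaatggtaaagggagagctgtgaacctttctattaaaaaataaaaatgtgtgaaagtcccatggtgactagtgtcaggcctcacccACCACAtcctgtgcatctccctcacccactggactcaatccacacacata

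Prf1, Klrb1c, and Klrk1 held the Runx motif once each, 130, 89, and 129 bases before their starts. Eomes held none. The T-box motif, also counted on both strands, was found in Nkg7 alone, 1 of 8 genes, compared with 3.33% of all windows, and a STAT motif (TTC and GAA separated by 3 bases) was likewise found in Nkg7 alone, compared with 7.02%. A Runx match may share bases with a T-box match where they abut. These matches describe letters in a window and do not show binding.

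Of the 10 genes, 9 reached a mean of 0.1 FPKM over the 9 mice and were tested. All 9 rose after anti-CD40, and none fell (limma on log2(FPKM + 0.1), adjusted p under 0.05 over all 13807 genes tested). By the same rule 45.1% of all genes tested were called, 23.5% higher and 21.7% lower. In 7 of the 9 genes, every anti-CD40 mouse lay above every control mouse, compared with 22.7% of all genes tested. The median log2 fold change of the 9 genes was 2.03, compared with 0.0056 over all genes tested. Eomes reached the filter only through the anti-CD40 mice, so these counts describe the genes that passed and are not a test of the group. In bulk liver, more cells of a type and more RNA per cell cannot be told apart, just as fewer cells and less RNA per cell cannot. FPKM divides by transcript length although reads came from the 3′ end, so levels are compared below between mice and not between genes.

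Libraries were of like depth. From the step size of low FPKM values, relative depth was 0.991 to 1.13 in anti-CD40 mice and 0.870 to 1.06 in control mice. Over all genes tested, 3240 were higher and 2990 lower, so that 52.0% of the calls were increases. After rescaling of each mouse without the acute phase genes Saa1, Saa2, and Saa3, 77.4% of calls were increases and the median log2 fold change was 0.35. All hepatocyte markers tested (7 of 7) passed the threshold, 5 of them lower, and 6 of 6 Kupffer cell markers fell. Summed FPKM of pancreas markers reached 984.6 in anti-CD40 mouse 5, compared with 70.6 to 190.4 in control mice, and summed FPKM of red cell markers reached 50540 in control mouse 4, compared with 4176 to 14320 in anti-CD40 mice.

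**Figure D1:**
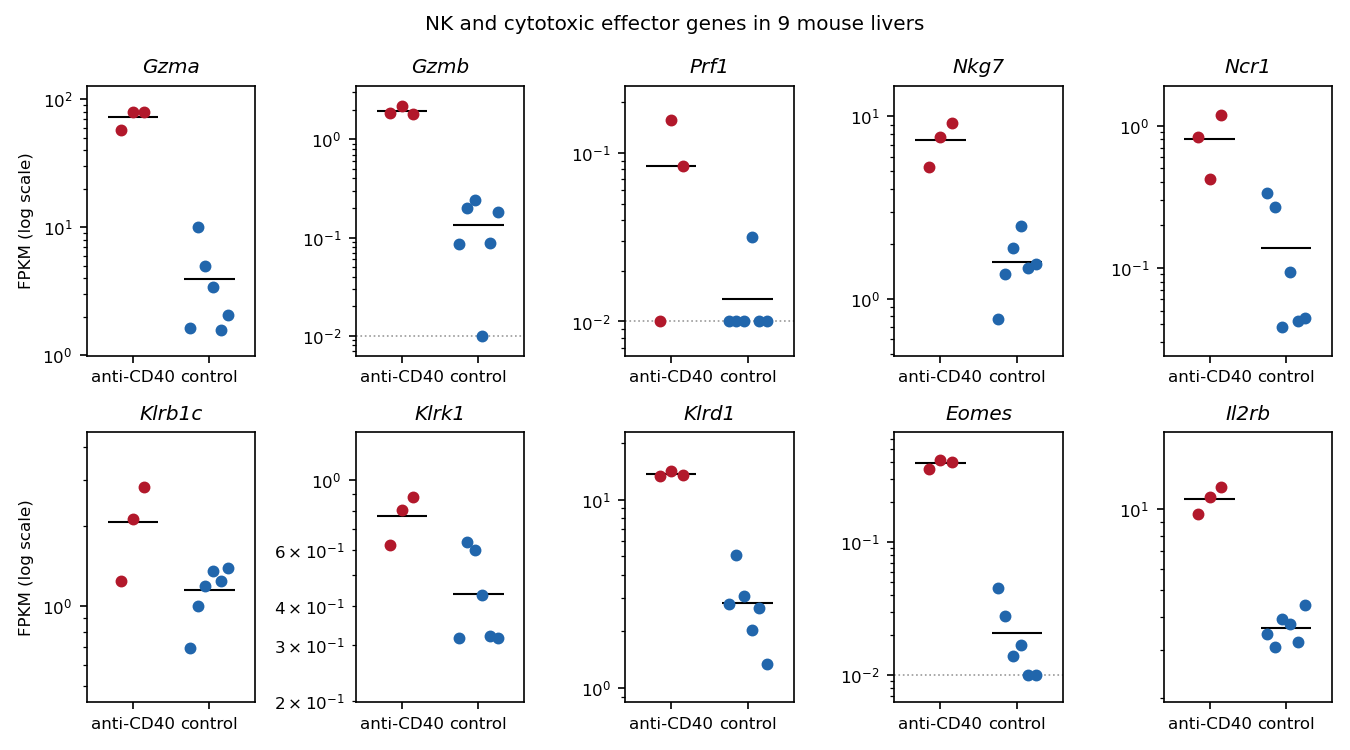
FPKM of the 10 genes (log axis, 1 panel per gene) in each of the 3 anti-CD40 mice (red) and 6 control mice (blue), with a black line at each group mean and a dotted line at the table's floor of 0.01 where it was reached. Groups are apart in 7 panels, and they overlap for Klrb1c, Klrk1, and Prf1.

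Among the effector genes tested, Gzma and Gzmb had the largest increases on the log2(FPKM + 0.1) scale, and by the fold of mean FPKM Eomes (18.8) and Gzma (18.3) were highest, with Gzmb at 14.6. Gzma encodes granzyme A, a tryptase-type protease, and lies on chr13:113093827-113100981 (mm10). It measured 57.7, 79.6, and 79.5 FPKM in anti-CD40 mice 2, 5, and 9, and the control mice ranged from 1.58 to 10.1 with a median of 2.74. The lowest anti-CD40 mouse was well above the highest control mouse, which was mouse 4. Mean FPKM was 72.3 ± 12.6 (SD, n = 3) compared with 3.96 ± 3.28 (SD, n = 6), an 18.3-fold difference in means. The log2 fold change was 4.47 ± 0.52 (SE), with an adjusted p of 6.82e-05 by limma and a p of 0.0238 by exact permutation, the lowest value possible with the 84 splits of the mice.

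Gzmb encodes granzyme B, which cleaves caspases and their substrates, and lies on chr14:56258858-56262260. Gzmb measured 1.86, 2.18, and 1.83 FPKM in the anti-CD40 mice, and the controls ranged from the floor of 0.01 to 0.239 with a median of 0.135. These values rest on 50, 55, and 43 reads in the anti-CD40 mice and on only 0 to 6 in the controls, as recovered from the step size of the FPKM values. The groups did not overlap, and the log2 fold change was 3.23 ± 0.34 (SE; limma adjusted p = 3.28e-05). The control values are close to what a few reads are worth, and the log2 fold change ranged from 1.38 to 4.14 over the alternative settings, with the pseudocount setting both ends.

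Nkg7 encodes a granule membrane protein needed for efficient degranulation, and lies on chr7:43437138-43438246. It measured 5.28, 7.67, and 9.17 FPKM in the anti-CD40 mice, compared with a control range of 0.777 to 2.51 and a median of 1.52. The lowest anti-CD40 mouse, mouse 2, was above all 6 control mice. Nkg7 had a log2 fold change of 2.18 ± 0.31 (SE; limma adjusted p = 2.4e-04).

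Prf1 encodes perforin, and lies on chr10:61297836-61304263. It was barely detected and was not tested in the fit across genes, with a mean of 0.0368 FPKM over the 9 mice. Prf1 was at the floor of 0.01 FPKM in anti-CD40 mouse 2 and measured 0.156 and 0.0835 in mice 5 and 9. Of the 6 control mice, 5 were at the floor, and mouse 8 measured 0.0317. In reads this was 9 over the 3 anti-CD40 mice and 1 over the 6 control mice. The ratio of reads per depth was 16.5, with an exact 95% interval of 2.29 to 723.0 that covers counting error only. The difference in mean log2(FPKM + 0.1) was 0.61 (exact permutation p = 0.167), 0.93 without mouse 2, and 0.33 without mouse 5. The Prf1 model in the table ended 417 bases before the 3′ end of the gene in GENCODE M21, and the part of this in its low value was not tested. With so few reads, no change of Prf1 could be shown.

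**Figure D2:**
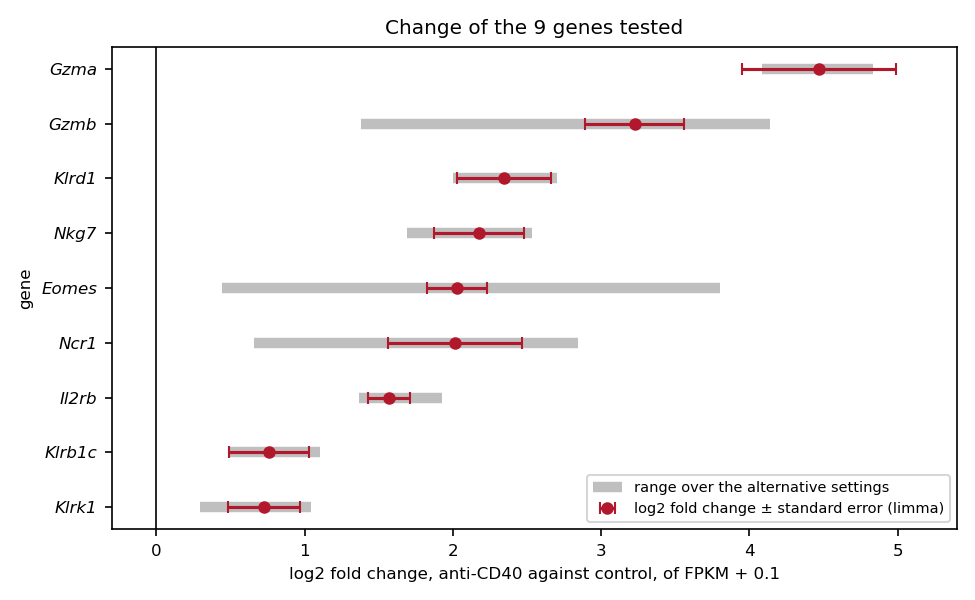
Log2 fold change of FPKM + 0.1, anti-CD40 against control, for the 9 genes tested (red points, with SE bars from limma) and the range of that value over the alternative settings (grey bars). Values run from 0.73 for Klrk1 to 4.47 for Gzma, and the grey bars of Gzmb, Eomes, and Ncr1 are wide because their control values lie near the pseudocount.

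The receptor genes changed by unequal amounts. Klrd1 encodes CD94, which pairs with NKG2 proteins to bind the MHC class Ib molecule Qa-1, and lies on chr6:129591811-129598775. It measured 13.4, 14.2, and 13.5 FPKM in the anti-CD40 mice, compared with 1.35 to 5.07 and a median of 2.71 in the control mice. The 3 anti-CD40 mice were nearly alike, and all were above the control mice. Its log2 fold change was 2.34 ± 0.32 (SE; limma adjusted p = 1.84e-04).

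Ncr1 encodes NKp46, an activating receptor used to define NK cells across strains, and lies on chr7:4337724-4345164. Ncr1 reached 0.825, 0.420, and 1.19 FPKM in anti-CD40 mice 2, 5, and 9, compared with 0.0383 to 0.333 and a median of 0.0687 in the control mice. Mouse 5 was only a little above control mice 3 and 4, which were apart from the other control mice. These were 23, 11, and 29 reads in the anti-CD40 mice compared with 1 to 8 in the controls. Its log2 fold change was 2.02 ± 0.45 (SE; limma adjusted p = 0.00424, exact permutation p = 0.0238), and it ranged from 0.66 to 2.84 with the pseudocount.

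Klrb1c encodes NK1.1, the antigen by which NK cells are commonly gated in C57BL/6 mice, and lies on chr6:128778485-128788641. It measured 1.25, 2.14, and 2.83 FPKM in the anti-CD40 mice, compared with 0.693 to 1.40 and a median of 1.22 in the control mice. Mouse 2 was within the control range, whereas mice 5 and 9 were above it. Klrb1c had a log2 fold change of 0.76 ± 0.27 (SE; limma adjusted p = 0.0418, exact permutation p = 0.0714). The call was lost in 8 of 19 alternative settings, including those without anti-CD40 mouse 5 (adjusted p = 0.125), without anti-CD40 mouse 9 (0.198), and without control mouse 3, 4, 7, or 11 (0.0559 to 0.0633). GENCODE M21 has Gm44511 overlapping Klrb1c on the same strand, so its reads may be shared.

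Klrk1 encodes NKG2D, an activating receptor for stress-induced ligands, and lies on chr6:129610323-129623864, 11547 bases from Klrd1. It measured 0.622, 0.806, and 0.883 FPKM in the anti-CD40 mice, compared with 0.317 to 0.635 and a median of 0.377 in the control mice. Mouse 2 lay just below control mouse 4. For Klrk1, the log2 fold change was 0.73 ± 0.24 (SE; limma adjusted p = 0.0328, exact permutation p = 0.0476). Here the call was lost in 7 of 18 alternative settings, including those without anti-CD40 mouse 5 (adjusted p = 0.099), without anti-CD40 mouse 9 (0.123), and without control mouse 3, 11, or 12 (0.0545 to 0.0605).

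For the regulators Eomes and Il2rb, the anti-CD40 mice were close to each other. The control values of Eomes all lay below the 0.1 added to each FPKM, which narrows their spread on the log2 scale. Eomes lies on chr9:118478189-118486132, and measured 0.352, 0.416, and 0.402 FPKM in the anti-CD40 mice, compared with a control range from the floor of 0.01 to 0.0455 and a median of 0.0155. This was 27, 30, and 27 reads compared with 0 to 3. The anti-CD40 mice were far above every control mouse. Its log2 fold change was 2.03 ± 0.20 (SE; limma adjusted p = 2.43e-05), and it ranged from 0.45 to 3.81 with the pseudocount. GENCODE M21 has Gm33460 overlapping Eomes on the opposite strand. Whether counting used the strand is not stated in the sources used here, so reads of the 2 genes cannot be told apart.

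Il2rb lies on chr15:78480549-78495066, and encodes CD122. It measured 9.61, 11.2, and 12.1 FPKM in the anti-CD40 mice, compared with 3.07 to 4.43 and a median of 3.59 in the control mice. The lowest anti-CD40 mouse was above the highest control mouse, with at least 531 reads per anti-CD40 mouse compared with 152 to 202 per control. Il2rb had a log2 fold change of 1.57 ± 0.14 (SE; limma adjusted p = 1.31e-05). The Il2rb model in the table ended 1293 bases before the 3′ end of the gene in GENCODE M21, and the part of this in its level was not tested.

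Next, the granule and receptor genes were compared with each other within the same mouse. Ncr1 was the planned reference, and its results are given after those of Klrb1c. Relative to Ncr1, only Gzma among the effector genes was called higher. Klrb1c was added as a reference because it had enough reads in all mice, a choice made after its values were seen. Il2rb had more reads than Klrb1c in every mouse. Among the effector genes tested, only Klrk1 rose less than Klrb1c (log2 fold changes 0.73 and 0.76). Increases of other genes relative to Klrb1c follow in part from this choice. They measure how much more a gene rose and are not separate support for a rise. Relative to Klrb1c, Gzma rose by a further 3.71 ± 0.44 (difference of the log2 ratio, SE; limma adjusted p = 5.38e-08), Gzmb by 2.47 ± 0.46 (8.42e-05), and Nkg7 by 1.42 ± 0.36 (0.00186). For each of these 3 genes the ratios of the groups did not overlap (exact permutation p = 0.0238). The share of all genes whose ratios to Klrb1c did not overlap was not counted, so this only describes the 3 genes. By limma at the same threshold, 6.61% of all genes tested rose relative to Klrb1c and 40.2% fell. The Klrb1c values enter every ratio, so the spread that limma pools over genes is shared. The limma adjusted p values of these ratios can therefore be too small. Klrd1 rose by 1.58 ± 0.42 relative to Klrb1c (adjusted p = 0.00276 by limma, exact permutation p = 0.0476), with ratios that overlapped between groups. Eomes also rose relative to Klrb1c (1.27 ± 0.49, limma adjusted p = 0.033), with ratios that overlapped between groups. The Eomes call was lost with a pseudocount of 1 (-0.047, limma adjusted p = 0.857) and after quantile normalization (0.0582). It was also lost without anti-CD40 mouse 2 or 5 or control mouse 7, 8, 11, or 12 (0.0564 to 0.107). Il2rb (0.81 ± 0.35, limma adjusted p = 0.056) and Ncr1 (1.25 ± 0.53, 0.051) did not pass the threshold, but both passed it in other settings. Il2rb passed with a pseudocount of 1 (0.00387), quantile normalization (0.0237), array weights (3.28e-06), a filter at a mean of 1 FPKM (0.0422), and without control mouse 3 (0.022). Ncr1 passed with a pseudocount of 0.01 (0.0317), no filter (0.0321), no trend (0.0447), robust eBayes (0.0194), array weights (0.00181), and without anti-CD40 mouse 5 (0.0221) or control mouse 3, 4, or 8 (0.0149 to 0.0461). Klrk1 differed from Klrb1c by -0.03 ± 0.42 (limma adjusted p = 0.952).

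**Figure D3:**
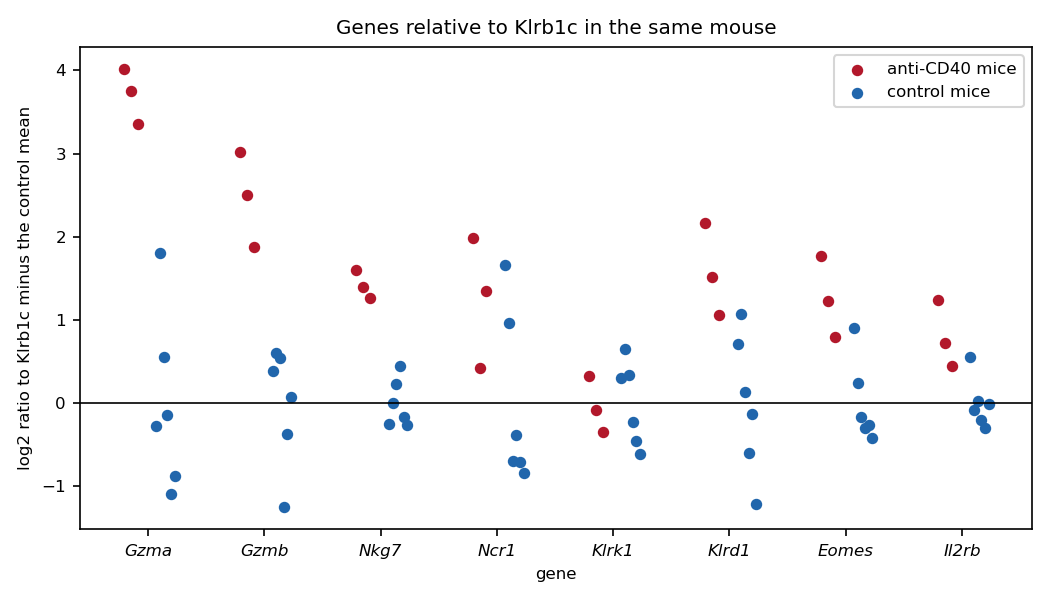
Log2 ratio of each gene to Klrb1c in the same mouse, from FPKM + 0.1 and with the control mean set to 0, in 3 anti-CD40 mice (red) and 6 control mice (blue). For Gzma, Gzmb, and Nkg7 all red points lie above all blue points, and for Klrk1 they lie among them. Klrb1c was not the planned reference and was added after its values were seen.

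Relative to Ncr1, Gzma rose by 2.45 ± 0.59 (difference of the log2 ratio, SE; limma adjusted p = 1.37e-04), and its ratios did not overlap between groups (exact permutation p = 0.0238). By limma at the same threshold, 1.46% of all genes tested rose relative to Ncr1 and 81.6% fell. The share of all genes whose ratios to Ncr1 did not overlap was not counted. Klrb1c (-1.25 ± 0.60, adjusted p = 0.0438 by limma) and Klrk1 (-1.29 ± 0.62, adjusted p = 0.0472 by limma) fell relative to Ncr1, with ratios that overlapped and exact permutation p values of 0.143 and 0.0476. The value for Klrb1c is the contrast with Ncr1 given above, with its sign turned and adjusted among other genes. Both calls were lost with a pseudocount of 1 (-0.16 and -0.35, limma adjusted p = 0.524 and 0.0933) and after the Saa genes were left out (0.0529 and 0.051), and that of Klrb1c also after quantile normalization (0.0745) and with no trend (0.0513). Both were likewise lost without anti-CD40 mouse 2 or 9 or control mouse 7, 8, 11, or 12 (limma adjusted p from 0.0753 to 0.264). Gzmb differed by 1.21 ± 0.64 (limma adjusted p = 0.0671) and passed the threshold with a pseudocount of 1 (0.73, 0.00359), with array weights (1.06, 5.03e-05), and without control mouse 7 (1.46, 0.0324), whereas it was 0.78 without anti-CD40 mouse 5. No call was made for Nkg7, Klrd1, Eomes, or Il2rb, but 3 of these 4 were called in other settings. Klrd1 rose relative to Ncr1 with a pseudocount of 1 (1.35, limma adjusted p = 1.98e-04). Nkg7 and Il2rb were called in opposite directions, higher with a pseudocount of 1 (1.03 and 0.71, limma adjusted p = 0.00254 and 0.00892) and lower with array weights (-1.04 and -1.11, limma adjusted p = 1.66e-06 and 1.65e-07). The same reference values enter every gene, so the spread that limma pools over genes is shared. The limma adjusted p values relative to Ncr1 can therefore also be too small. Ncr1 rests on 1 to 8 reads in each control mouse.

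Other genes linked to NK cells were then counted from lists compiled by role, and were not assigned to a cell type. Each count below stands beside the shares over all genes tested, of which 23.5% were higher and 21.7% lower. Some of the genes counted below had a control mean under 0.1 FPKM and so were tested only through the anti-CD40 mice, and their number is given with each count. Of 16 other granule genes tested of 22, 12 rose, 2 of them tested only in this way, and none fell. Cst7, an inhibitor of cathepsins that process granzymes, rose from 0.546 ± 0.152 to 26.0 ± 5.53 FPKM (log2 fold change 5.35 ± 0.23, SE; limma adjusted p = 1.5e-07). Gzmc, a granzyme gene 24201 bases from Gzmb, rose by 4.63 ± 0.29, with 66, 43, and 40 reads in the anti-CD40 mice compared with 0 to 2 in the controls. Stx11, a syntaxin for granule release, rose by 3.14, and Srgn, the granule proteoglycan serglycin, rose by 2.67. In contrast, 5 granzyme genes (Gzmd, Gzme, Gzmg, Gzmk, and Gzmn) were at the floor in all 9 mice. Gzmm, whose values were seen before it was chosen, measured 0.109 ± 0.0468 FPKM in the anti-CD40 mice and 0.116 ± 0.0823 in the control mice.

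Of 20 other NK receptor genes tested of 33, 18 rose and none fell, but 8 of the 18, Klra7, Havcr2, and Klrg1 among them, were tested only through the anti-CD40 mice. Slamf7 (log2 fold change 3.74), the Ly49 gene Klra7 (3.26), and the checkpoint receptor Havcr2 (2.68) rose most beside Klrg1, but these 3 shared a position in the table with other genes. Klrg1 encodes an inhibitory receptor of mature effector cells, and its log2 fold change was 2.96 ± 0.28 (SE; limma adjusted p = 1.69e-05), from 20 to 27 reads per anti-CD40 mouse compared with 0 to 3 per control. Klrc1 encodes NKG2A, the inhibitory partner of CD94. It measured 18.1 ± 1.37 FPKM in the anti-CD40 mice compared with 6.92 ± 2.62 in the control mice (log2 fold change 1.44 ± 0.25, SE; limma adjusted p = 8.67e-04).

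Of the 10 adaptor and kinase genes tested of 11, 9 rose, 1 of them tested only through the anti-CD40 mice, and 1 fell. Lat2 (log2 fold change 3.95), Sh2d1b1 (3.55), Syk (2.40), and Cd247 (2.28, at a position shared with another gene) rose most. Lat2 and Syk are also used by B cells and myeloid cells. The gene that fell, named after its value was seen, was Zap70, a kinase of T and NK cell receptor signaling, from 62.0 ± 18.1 to 20.1 ± 4.63 FPKM (log2 fold change -1.58 ± 0.27, SE; limma adjusted p = 8.85e-04).

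Ligands of NK receptors, and Cd1d1, which is bound by receptors of NKT cells, moved both ways. Of 13 tested of 21, 6 rose and 3 fell, compared with 23.5% higher and 21.7% lower over all genes tested. The part that fell was near the share over all genes. Cd48, the ligand of CD244, rose by 2.62 on the log2 scale, and the MHC class I genes H2-D1 (at a shared position) and H2-K1 rose by 1.85 and 1.40. Clec2h, a C-type lectin of the family bound by NKR-P1 receptors, had a log2 fold change of -2.06 ± 0.54 (SE; limma adjusted p = 0.00998), a call that was lost without anti-CD40 mouse 5 (-1.53, 0.0544). The others that fell, named after their values were seen, were Cd1d1 (-1.21) and Clec2d (-0.80), the latter losing its call without anti-CD40 mouse 9 and after the Saa genes were left out. H2-T23, which encodes the Qa-1 ligand of CD94 and NKG2A, measured 5.69 ± 1.83 FPKM in the anti-CD40 mice and 6.67 ± 3.84 in the control mice (limma adjusted p = 0.974), at a position shared with other genes and also named after its value was seen.

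Among transcription factors, 6 of 16 tested of 17 rose and none fell. They included Ikzf3 (log2 fold change 3.03), Runx3 (2.75), Tbx21 (1.90), and Prdm1 (1.42). Runx3, the Runx factor of cytotoxic lymphocytes, measured 3.29, 3.46, and 3.63 FPKM in the anti-CD40 mice compared with 0.298 to 0.683 in the controls (limma adjusted p = 9.66e-06). Tbx21 encodes T-bet and measured 3.69, 3.35, and 4.39 FPKM compared with 0.669 to 1.19 (limma adjusted p = 2.26e-05). For both, every anti-CD40 mouse lay above every control mouse, as in 22.7% of all genes tested and in 7 of the 9 effector genes tested.

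Of 16 genes tested of 21 on the cytokine axis of NK cells, 10 rose, 2 of them tested only through the anti-CD40 mice, and 2 fell. Il2rg, the γ chain that signals with CD122, rose from 1.87 ± 0.597 to 15.8 ± 1.24 FPKM (log2 fold change 3.07 ± 0.24, SE; limma adjusted p = 6.26e-06). Il12b, the p40 chain of IL-12, rose by 3.82, Il21r by 3.76, and Il18bp, the soluble inhibitor of IL-18, by 2.18. Il15 measured 3.12 ± 0.743 FPKM in the anti-CD40 mice and 2.74 ± 1.03 in the control mice, and did not pass the threshold (log2 fold change 0.24 ± 0.32, SE; limma adjusted p = 0.561). The 2 that fell, named after their values were seen, were Il18, from 123.6 ± 38.9 to 59.7 ± 12.3 FPKM, and Stat5b, from 18.0 ± 2.62 to 12.0 ± 1.18 FPKM. Both calls were lost when the Saa genes were left out (limma adjusted p = 0.0772 and 0.312). That of Il18 was also lost without anti-CD40 mouse 5 (0.0532) and after quantile normalization (0.0807).

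All 6 secreted products tested of 8 rose, 1 of them tested only through the anti-CD40 mice, with Ccl3 (log2 fold change 3.94), Tnf (3.90), Ccl4 (3.85), and Ccl5 (3.85) leading. Macrophages also make each of these, and Tnf and the chemokines were not assigned to a cell type. Ifng, the hallmark cytokine of NK cells, rested on 3 reads in the anti-CD40 mice and 9 in the control mice and was not tested. Of 15 trafficking genes tested of 16, 12 rose and 1 fell. Itgam (3.35), Itgb2 (2.99), and Cx3cr1 (2.98) were among those that rose, and these are also expressed by neutrophils and monocytes. The gene that fell, named after its value was seen, was S1pr5, a receptor for NK cell exit from tissue, with 0.395 ± 0.0870 FPKM in the anti-CD40 mice compared with 0.893 ± 0.284 (log2 fold change -0.95 ± 0.30, SE; limma adjusted p = 0.0246). Its groups overlapped, and it lost the call when anti-CD40 mouse 2 (limma adjusted p = 0.0853) or 5 (0.0878) was left out. It also lost the call when the Saa genes were left out (0.0867) and with no filter (0.0734).

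**Figure D4:**
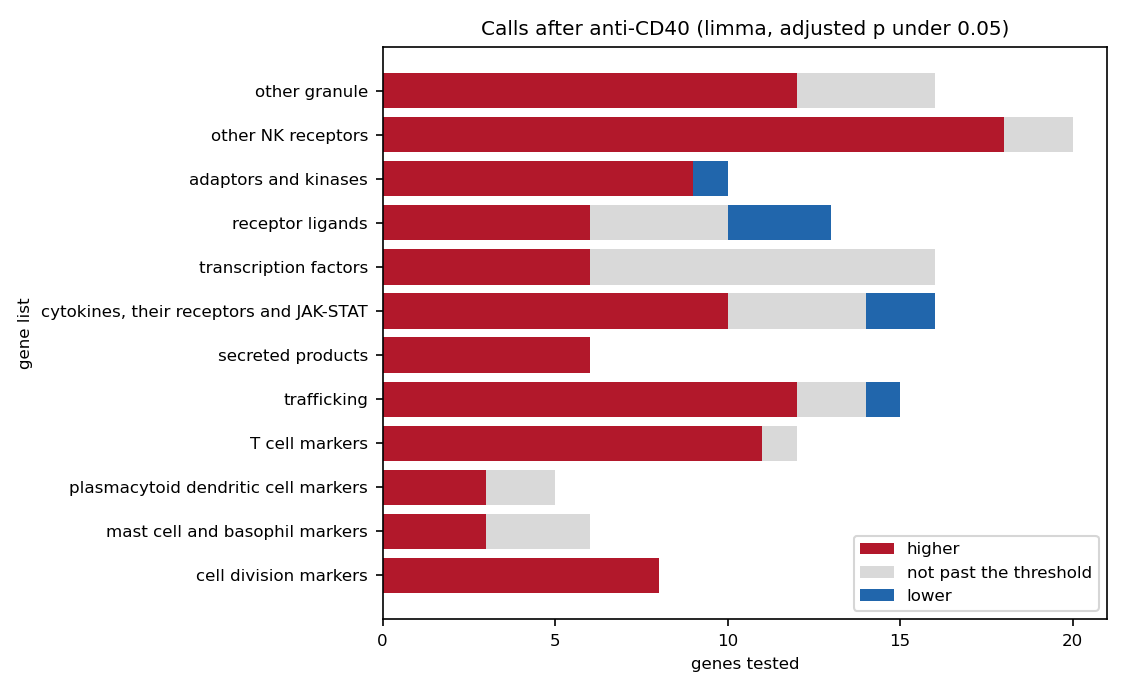
Number of genes tested in each list (horizontal axis) that were higher (red), lower (blue), or not past the threshold (grey) after anti-CD40, by limma over all genes. Other NK receptors had 18 of 20 genes higher and transcription factors 6 of 16, beside T cell markers with 11 of 12 and cell division markers with 8 of 8. Over all genes tested, 23.5% were higher and 21.7% lower.

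Markers of other cells moved at the same time. Of 12 T cell markers tested of 15, 11 rose and none fell, 2 of the 11 tested only through the anti-CD40 mice, with summed FPKM of 11.2 to 14.5 in the anti-CD40 mice compared with 3.60 to 5.87 in the control mice. This count was 6 without anti-CD40 mouse 2 and 7 without anti-CD40 mouse 9. Cd8a, named with Cd3e after their values were seen, measured 1.03 ± 0.0888 FPKM compared with 0.0946 ± 0.0749 (log2 fold change 2.63 ± 0.32, SE; limma adjusted p = 8.96e-05), and Cd3e 0.260 ± 0.0113 compared with 0.117 ± 0.0683 (0.78 ± 0.27, SE; limma adjusted p = 0.0362). The Cd3e call was lost without any 1 of the 3 anti-CD40 mice and without control mouse 3, 8, 11, or 12. It was also lost with no filter (limma adjusted p = 0.0525), after quantile normalization (0.176), and with a pseudocount of 0.01. Trat1 was at the floor in all mice, and Tcf7 was at the floor in the anti-CD40 mice. Cd8a is also expressed by a subset of dendritic cells. Cell division markers rose in 8 of 8 genes, 2 tested only through the anti-CD40 mice, with summed FPKM of 107.4 to 152.1 compared with 6.71 to 27.7, and 3 of 5 plasmacytoid dendritic cell markers rose, with summed FPKM of 9.31 to 19.0 compared with 0.820 to 4.78. Of these, Klk1 was 11.8 FPKM in mouse 5, the mouse with the highest pancreas markers, and 1.42 and 1.38 in mice 2 and 9, Spib, which B cells also express, was 5.61 to 6.06, Siglech rose by 0.67 on the log2 scale (limma adjusted p = 0.0485), and Ccr9 did not pass the threshold (0.29). B cell markers rose in 9 of 9 genes tested, neutrophil markers in 8 of 8 (2 and 4 of them tested only through the anti-CD40 mice), and monocyte and macrophage markers in 7 of 9, with 1 lower. Mast cell and basophil markers were higher in 3 of 6, 2 of them tested only in that way, a count that was 0 without anti-CD40 mouse 5 or 9 and 1 without anti-CD40 mouse 2 or control mouse 8 or 12. The part of these cells in the values of the granule and receptor genes was not tested.

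The genes whose values over the 9 mice were most like those of each effector gene were sought among 13798 others, by the root mean square difference in log2(FPKM + 0.1) after centering on the control mean. This is a description, and the 9 mice include the difference between the groups. Klrd1 was closest to Ms4a4b, a membrane protein gene of T and NK cells, at 0.158, and then to Ptgir (0.174) and Ptges (0.206). Eomes was closest to Atad2 (0.123), Cdc25c (0.157), and Tubb6 (0.161), of which Cdc25c drives entry into mitosis. Nkg7 was closest to Fmnl1 (0.301), Lck (0.303, at a shared position), and Kcnn4 (0.304), and Lck is the proximal kinase of T cell receptor signaling. Gzma was closest to Napsa (0.27), Bcl2a1b (0.378), and Bcl2a1a (0.392), the last of which are near-identical copies. Gzmb was closest to Mthfd2 (0.254), Plac8 (0.273), and Tnfaip3 (0.302), and Ncr1 to Ace (0.376, at a shared position), Tuba8 (0.403), and Nfkbiz (0.422). Il2rb was closest to Cntnap1 (0.133), Myo9b (0.14), and Soat1 (0.157). Klrk1 was closest to Ehd2 (0.142), Bicd1 (0.154), and Nxn (0.162), and Klrb1c to Foxd2os (0.215), Rrp1b (0.237), and Israa (0.238, at a shared position). For the barely detected Prf1 these were Tspan17 (0.174), Fbxl19 (0.194), and Slc10a3 (0.199, at a shared position). Between the effector genes themselves, the smallest such difference was 0.347, between Eomes and Il2rb, and Gzma was no closer than 1.02 to another of them.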

How the data were processed

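The authors extracted RNA from the liver of each mouse, and libraries were made with the QuantSeq 3′ FWD kit and sequenced on an Illumina instrument. The authors aligned reads to mm10 with STAR and ran Cufflinks and Cuffdiff in BaseSpace applications, and deposited FPKM per gene with a floor of 0.01. The labels name separate mice. The 15 genes with a failed estimate were dropped, leaving 24326. FPKM was tested as log2(FPKM + 0.1), for the 13807 genes whose mean was 0.1 or more, using limma 3.58.1 under R 4.3.3 (eBayes with trend, 2-sided, Benjamini-Hochberg). Because 0.1 was added to each FPKM, fold changes on this scale understate those of low genes. Single genes also had a 2-sided exact permutation test over 84 splits. The exact interval of Prf1 was computed with scipy 1.17.1. Whole reads were recovered from the steps of low FPKM (91.0% of 3804 low genes within 0.02 of a whole read, 0 if depths were set equal), as the smallest whole numbers that fitted. They describe precision only. In simulated data on 13807 genes, the test of anti-CD40 against control recovered 63 of 100 genes changed by 1 on the log2 scale and 83 of 100 changed by 2, with 7 of 13607 unchanged genes called. Far fewer genes changed in the simulation than the 45.1% called in the mice. The adjusted p depends on that share, so these rates do not give the recovery in the mice. Positions are those of the table counted from 1, annotation is from GENCODE M21, and upstream sequence is from RefSeq GRCm38.p6.

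The effector genes and lists were chosen with earlier results of these data known. The rule for naming took all 10 genes, from each list up to 4 called genes of largest change, Ifng, Tbx21, Il15, Klrc1, and Klrg1, and the 3 genes most alike in pattern to each effector gene. A gene taken by this rule is not reported here. Alternatives were the pseudocount, the filter, the scaling, the threshold, the limma options, and leaving out each mouse.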

Additional observations from a re-analysis of the deposited data

Results flagged for a closer look

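Some results stood apart by a gap between 1 control mouse and the rest, relative to the range of the 6 control mice, above Dixon's 95% critical value. Of 53 results examined, chance alone would flag about 1 in 20. Prf1 was above the floor in a single control mouse, mouse 8, at 0.0317 FPKM (gap 1.0 of the range), which is 1 read. Syk was lowest in control mouse 3, at 0.513 FPKM (0.853). In control mouse 4, Clec2h was highest at 4.14 FPKM (0.795), as were Prdm1 at 0.997 FPKM (0.723) and Klrc1 at 12.0 FPKM (0.717). Clec2d was highest in control mouse 7, at 3.16 FPKM (0.65). None of the 9 effector genes tested stood apart in this way.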

How the results depend on the processing

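Gzma, Gzmb, Nkg7, Ncr1, Klrd1, Eomes, and Il2rb kept their direction and stayed past the threshold in all alternatives run, with the highest adjusted p, 0.0269, for Ncr1. Of the 10 effector genes, 9 were called, 5 with a mean FPKM of at least 1, which leaves fewer genes tested, and 7 to 9 when 1 mouse was left out. The number of genes changed was 6230, and 4814 to 6830 when 1 mouse was left out. It was 3142 with at least a 2-fold change and 4885 with a mean FPKM of at least 1. Relative to Ncr1, 11467 genes changed, 8561 to 12192 when 1 mouse was left out, 21923 with no filter on low values, and 6462 with Klrb1c as the reference, an alternative added after seeing the data. Directions relative to Ncr1 turned for Eomes (main 0.01) with a pseudocount of 1 (-0.21), after the Saa genes were left out (-0.038), and with array weights (-0.46), for Il2rb (main -0.45) with a pseudocount of 1 (0.71), for Nkg7 (main 0.16) with a pseudocount of 0.01 (-0.60) and array weights (-1.04), and for Klrd1 (main 0.33) with a pseudocount of 0.01 (-0.46). When 1 mouse was left out these ranged from -0.38 to 0.29 for Eomes, -0.24 to 0.44 for Nkg7, and -0.053 to 0.64 for Klrd1. Relative to Klrb1c, Eomes turned with a pseudocount of 1 (-0.047), and Klrk1 with a pseudocount of 0.01 (0.045), with array weights (0.0049), and over a range of -0.21 to 0.12 when 1 mouse was left out. The increase of Gzma relative to Ncr1 lost its call with a pseudocount of 0.01 (1.67, adjusted p = 0.0766), and the cause was not tested. Klrb1c and Klrk1 lost their calls with no filter (0.108 and 0.0755) and after quantile normalization (0.186 and 0.264). No paired analysis was possible because the groups share no mouse number. With a mean FPKM of at least 1, 4 other NK receptor genes, 5 cytokine axis genes, 7 trafficking genes, 3 transcription factors, and 2 T cell markers were tested and higher. T cell markers higher numbered 7 with no filter and 7 after quantile normalization. Few reads in the control mice limit the precision of Prf1, Ifng, Ncr1, and Eomes.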
